A study of Mus musculus with 12 samples.

Results

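The genes of the ribosome and of the translation factors were followed in 6DT1 cells, a mouse mammary cancer line from a MMTV-Myc tumor. The members were the deposited genes whose symbol starts with Rpl, Rps, Mrpl, Mrps, Eif or Eef, without the Rps6k kinases. They were 23 of 982 genes: 11 genes of the cytosolic ribosome, 2 of the mitochondrial ribosome, 5 pseudogenes, 1 retrocopy and 4 translation factors. The table is a small part of these families: GENCODE M21 annotates 84 protein-coding genes of the cytosolic class, 78 of the mitochondrial class and 55 of the factor class by these prefixes, and every one of the 982 deposited genes passed the test in the mean of the guides. No Eef gene was among them, and Rpl22 and Rpl27, to which the study gave separate experiments, were not analysed here.

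The 12 libraries formed 4 groups of 3. The sgControl cells carried a scrambled guide RNA and were labelled wild type. The sg1, sg2 and sg3 cells carried 1 of 3 guides against Resf1, the gene of retroelement silencing factor 1, and were labelled Resf1 KO. The labels give 1 medium for all groups, DMEM with 10% FBS and puromycin, while the study's account of the guide lines names GFP sorting and no puromycin. Per the study's methods the guides were delivered with Cas9 and GFP in a lentiviral vector and the edited lines were grown from single cells, so a guide and its clone cannot be told apart, and the 3 libraries of a group were dishes of 1 line: p-values measure the spread between dishes. The edited gene itself, Resf1, was not analysed here and gives no check of the labels. Among mammary markers, Krt8, Krt18 and Krt19 (3 of 9 epithelial genes listed) were in the table, while 0 of 6 basal, 0 of 6 fibroblast and 0 of 3 endothelial markers were, and Cd68 was the 1 of 5 leukocyte markers listed. All 3 keratins were called higher with sg1 and lower with sg3, and Cd68 measured 135, 305, 161 and 148 on average in sgControl, sg1, sg2 and sg3. Their part in the results was not tested.

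A ribosome is built from ribosomal RNA and ribosomal proteins, which come in about equal copy number, the RPL proteins and the RPLP stalk proteins in the large subunit and the RPS proteins in the small one. Mitochondria hold a separate ribosome with MRPL and MRPS proteins, which makes the core subunits of the respiratory chain. The eIF factors bring messenger RNA, initiator tRNA and the ribosome together, and eIF5A helps the ribosome through difficult stretches of elongation. Ribosomal protein genes are highly transcribed, and their mRNAs left many processed copies in the mouse genome, which are hard to tell from the parent gene in short reads.

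Many mRNAs of ribosomal proteins begin with a C and a run of pyrimidines, the terminal oligopyrimidine (TOP) tract, through which mTOR and LARP1 control their translation. RefSeq promoter entries (GRCm38.p6, 250 bases before to 50 after the start) existed for 15 of the 23 members. A C followed by at least 4 pyrimidines within 10 bases of an annotated start was found for 7 of 9 cytosolic genes with an entry (77.8%), against 39.7% of the 702 deposited genes and 34.4% of the 27025 mouse genes with one. The windows below span 15 bases on each side of the start, are printed on the gene's strand, and carry the tract in capitals. Rpl7a lies at chr2:26910792-26910821 (+), Rpl18 at chr7:45718056-45718085 (+), Rplp2 at chr7:141447636-141447665 (+), Rps10 at chr17:27635230-27635259 (-), Rpl35a, at 1 of its 3 annotated starts, at chr16:33056467-33056496 (+), and Rplp0, shown as a gene without a match, at chr5:115559452-115559481 (+).
Rpl7a: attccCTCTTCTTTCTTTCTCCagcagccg
Rpl18: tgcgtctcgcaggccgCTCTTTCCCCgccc
Rplp2: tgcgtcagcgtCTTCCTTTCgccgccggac
Rps10: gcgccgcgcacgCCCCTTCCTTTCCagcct
Rpl35a: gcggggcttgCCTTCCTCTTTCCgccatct
Rplp0: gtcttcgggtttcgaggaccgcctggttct

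The tracts marked were 9 to 17 bases long, counted from the first C within 10 bases of the start, and in Rpl7a the run of pyrimidines goes on before the marked bases. Rpl39 (5 bases) and Rps19, at 1 of its 3 starts (7 bases), also matched, and Rpl13 did not. Among other motifs, sought on both strands of the same 300 bases, the Sp1 core GGGCGG was in 8 of the 9 cytosolic promoters and 67.7% of those of deposited genes, the ETS core CCGGAAG in 3 of 9 and 13.1%, the E-box CACGTG in 1 of 9 and 16.1%, and the YY1 core AAGATGGC in 1 of 9 and 4.13%. These matches are a description of letters, with no test.

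All 11 deposited cytosolic ribosomal protein genes, of 84 annotated, were lower with each of the 3 guides than in the control cells. The median log2 fold change was -0.22, -0.16 and -0.21 for sg1, sg2 and sg3 (1.17-fold, 1.12-fold and 1.16-fold lower), beside medians of 0.20, -0.02 and -0.03 over all 982 genes. With sg1, 10 of the 11 fell past an adjusted p of 0.05, with sg2 8 and with sg3 9, and none rose. The background was high, since 39.1%, 29.4% and 33.4% of all genes were called lower with sg1, sg2 and sg3, and 50.1%, 30.2% and 26.5% higher. All 982 genes passed in the mean of these guides against the same controls. Calls with single guides, and a direction shared by them, were therefore favoured in advance. In bulk RNA, fewer cells of a type and less RNA per cell cannot be told apart.

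The direction was shared among libraries. The median of the 11 genes, in percent of each gene's control mean, was 97.6, 101 and 101% in the control libraries, 84.0, 83.7 and 87.8% with sg1, 90.4, 92.2 and 87.1% with sg2, and 80.3, 89.8 and 88.7% with sg3. For 10 of the 11 genes all 9 edited libraries lay below all 3 control libraries, which held for 16.1% of all genes. The exception was Rpl35a, which overlapped the controls in 1 library of sg2. The genes did not move by an equal amount in every dish. Replicate 1 of sg3, with the smallest inferred size factor of all libraries (0.859), was the lowest of its group for 9 of the 11 genes. Replicate 3 of sg2, with the largest (1.147), was the lowest of its group for 9 of the 11.

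**Figure D1:**
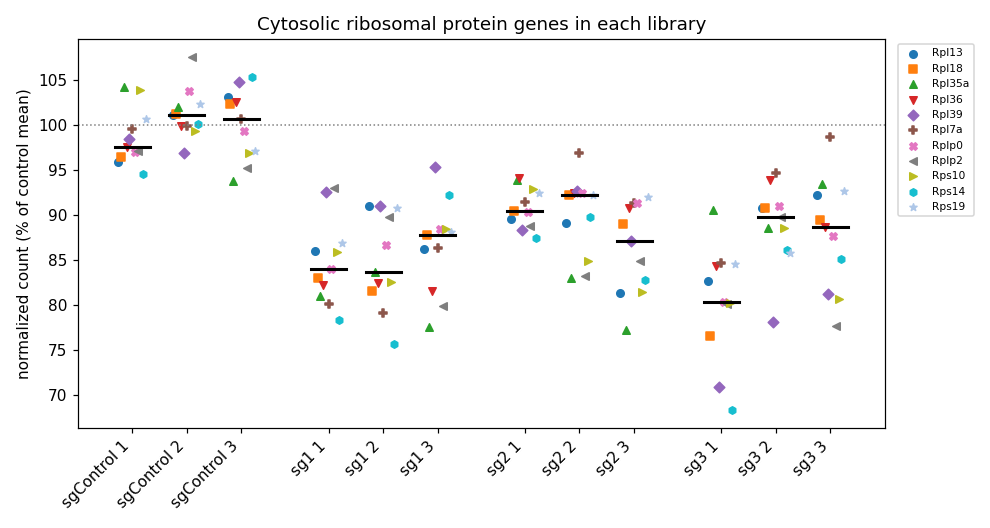
Normalized count of the 11 cytosolic ribosomal protein genes (symbols) in each of the 12 libraries, as percent of the gene's mean over the 3 control libraries (dotted line), with the median of the genes as a black bar. The 9 edited libraries have medians between 80.3 and 92.2%, below those of the controls, and replicate 1 of sg3 is the lowest.

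The 3 small subunit genes of the table were called lower with every guide. Rps14, a small subunit protein that is reduced in the 5q- syndrome, measured 3824, 4047 and 4258 in the control libraries, 3168, 3062 and 3727 with sg1, 3537, 3631 and 3348 with sg2, and 2764, 3484 and 3441 with sg3. Rps19, often mutated in Diamond-Blackfan anemia, measured 3201, 3254 and 3088 in the control libraries, 2764, 2889 and 2805 with sg1, 2941, 2935 and 2925 with sg2, and 2692, 2730.1 and 2949 with sg3. Rps10, near the mRNA entry channel, measured 739, 707 and 689 in the control libraries, 612, 587 and 629 with sg1, 661, 604 and 580.0 with sg2, and 571, 629.9 and 574 with sg3. In each of these genes the edited libraries were all below the controls.

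Rps14 changed by -0.29 ± 0.08 (SE, adjusted p = 0.00464) on the log2 scale with sg1, -0.21 ± 0.08 (SE, adjusted p = 0.0467) with sg2 and -0.33 ± 0.08 (SE, adjusted p = 0.00402) with sg3. For Rps19 the values were -0.17 ± 0.05 (SE, adjusted p = 0.00282), -0.12 ± 0.05 (SE, adjusted p = 0.0457) and -0.19 ± 0.05 (SE, adjusted p = 0.00335). For Rps10 they were -0.22 ± 0.07 (SE, adjusted p = 0.00625), -0.21 ± 0.07 (SE, adjusted p = 0.0157) and -0.27 ± 0.07 (SE, adjusted p = 0.00408). The difference among the guides did not pass the test for any of these 3 genes (adjusted p of limma's F test 0.383, 0.334 and 0.733). With sg2 the call of Rps14 was lost without any 1 of 6 libraries (sgControl replicate 2 or 3, sg1 replicate 1 or any sg2 library), that of Rps19 without any 1 of 8 (sgControl replicate 1 or 2, or any sg1 or sg2 library) and that of Rps10 without sgControl replicate 1 or sg2 replicate 3. With the length and GC trend removed, Rps14 with sg2 (-0.089, adjusted p = 0.348) and sg3 (-0.18, 0.0619) and Rps10 with sg2 (-0.13, 0.0712) and sg3 (-0.0841, 0.256) did not pass. With plain empirical Bayes the sg2 calls of Rps14 (adjusted p = 0.102) and Rps19 (0.0597) were lost.

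Of the large subunit, 3 genes, Rpl13, Rplp0 and Rplp2, were also called lower with every guide. Rplp0 and Rplp2 encode proteins of the stalk that recruits the GTPases of translation. Rplp0 had the highest level of the class, with 18203, 19468 and 18632 in the control libraries, 15765, 16264 and 16603 with sg1, 16946, 17343 and 17132 with sg2, and 15071, 17085 and 16454 with sg3. Rplp2 measured 2111, 2338 and 2071 in the control libraries, 2021, 1951 and 1736 with sg1, 1931, 1810.1 and 1846 with sg2, and 1741, 1951 and 1689 with sg3. Rpl13, a protein on the outer face of the large subunit, measured 1826, 1927 and 1963 in the control libraries, 1639, 1734 and 1644 with sg1, 1706, 1697 and 1551 with sg2, and 1576, 1730.2 and 1757 with sg3. No edited library of these genes reached the lowest control.

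Rplp0 changed by -0.21 ± 0.05 (SE, adjusted p = 0.00156) with sg1, -0.13 ± 0.05 (SE, adjusted p = 0.0456) with sg2 and -0.21 ± 0.05 (SE, adjusted p = 0.00324) with sg3. For Rplp2 the log2 fold changes were -0.19 ± 0.07 (SE, adjusted p = 0.0149), -0.22 ± 0.07 (SE, adjusted p = 0.0123) and -0.28 ± 0.07 (SE, adjusted p = 0.00297). For Rpl13 they were -0.19 ± 0.06 (SE, adjusted p = 0.0064), -0.21 ± 0.06 (SE, adjusted p = 0.00687) and -0.18 ± 0.06 (SE, adjusted p = 0.0175). Adjusted p-values among the guides were 0.274, 0.5 and 0.877. The call of Rplp0 with sg2 was lost without any 1 of 10 libraries, all but sg3 replicates 1 and 2, and with plain empirical Bayes (adjusted p = 0.0628). That of Rplp2 was lost with sg1 without sgControl replicate 2 or sg1 replicate 3, and with sg2 without sgControl replicate 2, and that of Rpl13 with sg3 without sgControl replicate 3 or sg3 replicate 1. With the length and GC trend removed, Rplp0 with sg2 (-0.0591, adjusted p = 0.226), Rplp2 with sg2 (-0.12, 0.104) and Rpl13 with sg3 (-0.10, 0.105) did not pass.

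The other 5 large subunit genes were called with 1 or 2 guides. Rpl35a, at the surface of the large subunit, fell most with sg1 and sg2, and measured 604, 592 and 544 in the control libraries, 469.9, 486 and 450.1 with sg1, 545, 482 and 448 with sg2, and 525, 514 and 542 with sg3. Its log2 fold change was -0.31 ± 0.08 (SE, adjusted p = 0.00142), -0.24 ± 0.08 (SE, adjusted p = 0.0139) and -0.14 ± 0.08 (SE, adjusted p = 0.13). Rpl39, a very small protein of the exit tunnel, fell most with sg3, and measured 3234, 3183 and 3444 in the control libraries, 3041, 2989.7 and 3134 with sg1, 2903, 3045 and 2863 with sg2, and 2330.1, 2567 and 2672 with sg3. All edited libraries of Rpl39 were below the controls, and those of sg3 were below all others. With the length and GC trend removed Rpl35a was also called with sg3 (-0.26, adjusted p = 0.0156). With sg2 the call of Rpl35a was lost without sgControl replicate 1 or sg2 replicate 3, and that of Rpl39 without sgControl replicate 3 or sg2 replicate 1 or 3.

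Rpl39 changed by -0.11 ± 0.06 (SE, adjusted p = 0.0814), -0.16 ± 0.06 (SE, adjusted p = 0.0198) and -0.38 ± 0.06 (SE, adjusted p = 2.20e-05) with the 3 guides. Its difference among the guides passed the test (adjusted p = 0.000495), though not under table-total scaling (0.224), as did those of Rpl7a (0.00991) and Rpl36 (0.0278). Rpl7a and Rpl36 were called with sg1 (-0.29 and -0.28), and Rpl36 also with sg3 (-0.17). Rpl18 was called with sg1 and sg3 (-0.25 and -0.23) and had an adjusted p of 0.0516 with sg2. Under the 4 other scalings Rpl36 (-0.316 to -0.128) and Rpl18 (-0.346 to -0.157) were called with sg2. Rpl7a was called with sg2 under median-of-ratios (-0.143), table-total (-0.305) and upper quartile (-0.154) scaling. With sg3 Rpl7a was called under table-total scaling (-0.215) and without sg3 replicate 3 (-0.159). With sg1, Rpl39 was -0.32 to -0.24 and called under the 4 other scalings, and -0.22 (adjusted p = 0.000291) with the length and GC trend removed. With that trend removed Rpl36 (-0.0666, adjusted p = 0.284) and Rpl18 (-0.13, 0.065) did not pass with sg3, and the call of Rpl36 with sg3 was also lost without sg3 replicate 1. With the replicate number as a block, Rpl39 with sg1 (adjusted p = 0.043) and Rpl18 with sg2 (0.0207) passed too. The mean counts of Rpl7a, Rpl36 and Rpl18 were 3216 ± 18.1, 1247 ± 31.3 and 2775 ± 87.4 (SD, n = 3) in the control.

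Per kilobase of the longest coding transcript, the control level ran from 802 for Rps10 to 13820 for Rplp0 in the 11 genes. Rps14 and Rpl39 followed at 5151 and 5371, and Rpl36 and Rpl7a at 3255 and 3518. These levels depend on the annotated length used, which was 2989 bases for Rpl18, 1284 for Rps19 and 383 for Rpl36. Whether the longest transcript was the one expressed was not tested. The levels also depend on how reads of processed copies were assigned. Up to 14 pseudogene symbols were annotated for 1 gene (Rps19), and 0 for Rps14 and Rplp2.

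The largest fitted change in the 11 genes was 1.30-fold lower, for Rpl39 with sg3. In a test against a 1.2-fold change, 0 of the 11 genes passed with any guide, where 16%, 11.4% and 11.1% of all genes passed as lower with sg1, sg2 and sg3, and 52%, 22.5% and 19.9% in either direction. The test was run on the deposited scale only. With 3 dishes per group, a gene that did not pass may still have changed by more than 1.2-fold. Without any 1 library the count called lower was 9 to 11 with sg1, 2 to 9 with sg2 and 7 to 10 with sg3. For sg2 it was 4, 5 and 2 without its replicate 1, 2 and 3, 4, 4 and 5 without sgControl replicate 1, 2 and 3, and 5 without sg1 replicate 1. With scaling by median of ratios over the table the counts were 11, 11 and 9. Here the median with sg1 was 0.05 over all genes, in place of 0.20 as deposited, and -0.38 over the 11 genes. The most abundant feature, which took 16.1 to 24.1% of the table's sum in the controls, took 17.9 to 29.3% with sg1, 26.0 to 32.9% with sg2 and 25.0 to 28.8% with sg3. Scaled to the table's total without it, 11, 10 and 9 of the 11 genes were called.

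**Figure D2:**
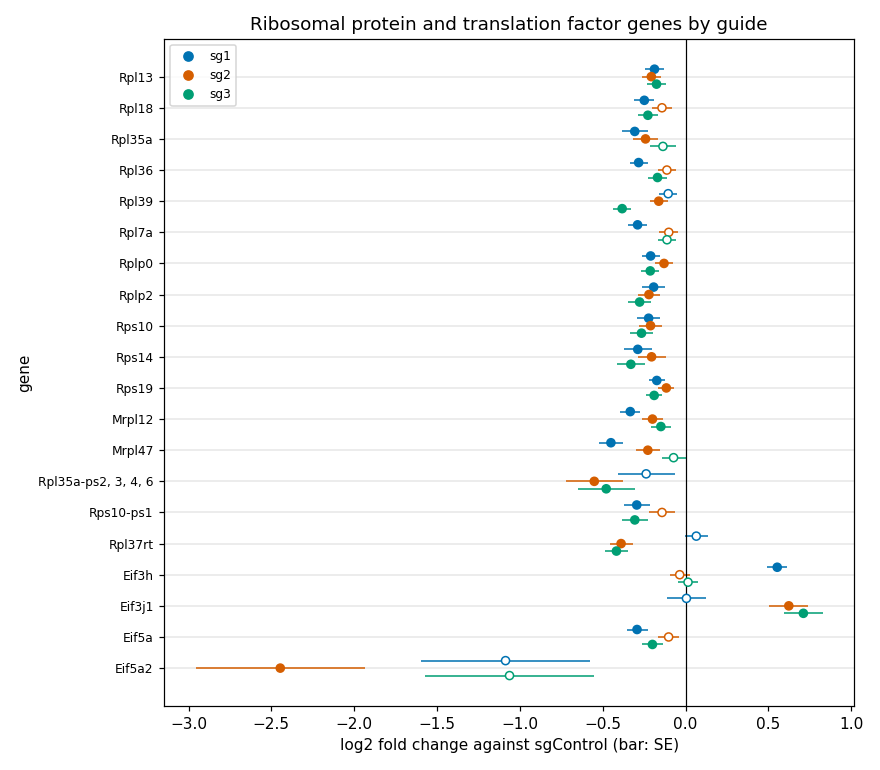
Log2 fold change against sgControl (horizontal axis, with SE bars) of each member with sg1, sg2 and sg3 (colors), filled where the adjusted p was at most 0.05, with the 4 identical Rpl35a copies drawn once. The cytosolic genes lie left of 0 with every guide, while Eif3h, Eif3j1 and Rpl37rt lie apart with 1 or 2 guides and Eif5a2 has the widest bars.

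Both mitochondrial ribosomal protein genes were lower with every guide, and more so with sg1. Mrpl12, a stalk protein of the mitochondrial large subunit that is also reported to bind the mitochondrial RNA polymerase, measured 2733, 2807 and 2624 in the control libraries, 2056, 2326 and 2100.5 with sg1, 2316, 2403 and 2386 with sg2, and 2259, 2638 and 2476 with sg3. Mrpl47, another protein of that subunit, measured 471, 473 and 468 in the control libraries, 320.4, 344 and 369 with sg1, 386, 414 and 405 with sg2, and 459.5, 433 and 451 with sg3. The edited libraries of Mrpl47 were all below the controls, which lay between 468 and 474 counts, and for Mrpl12 those of sg3 overlapped the controls.

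Mrpl12 changed by -0.33 ± 0.06 (SE, adjusted p = 8.27e-05), -0.20 ± 0.06 (SE, adjusted p = 0.0109) and -0.15 ± 0.06 (SE, adjusted p = 0.0436) with sg1, sg2 and sg3, and was the seventh member called lower with all 3 guides (7 of 23, against 11.8% of all genes). Mrpl47 changed by -0.45 ± 0.07 (SE, adjusted p = 2.22e-05), -0.23 ± 0.07 (SE, adjusted p = 0.0137) and -0.07 ± 0.07 (SE, adjusted p = 0.38). Both differed among the guides (adjusted p = 0.0289 and 0.000549). The call of Mrpl12 with sg3 was lost without any 1 of 7 libraries (sgControl replicate 1 or 2, any sg2 library, or sg3 replicate 1 or 3). Plain empirical Bayes (adjusted p = 0.0806) and the fit of only the 2 groups compared (0.065) lost it too. So did table-total scaling without the most abundant feature (-0.117, adjusted p = 0.08). With the length and GC trend removed its sign turned to 0.02. With that trend removed Mrpl12 did not pass with sg2 either (-0.0679, adjusted p = 0.222), while Mrpl47 passed with sg3 (-0.18, adjusted p = 0.0334). The call of Mrpl47 with sg2 was lost without sg2 replicate 1.

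The pseudogenes and the retrocopy differ from their parent genes by few bases, and the sequences show what the counts could resolve. The annotated Rpl35a-ps2 (chromosome 1), Rpl35a-ps3 (chromosome 17), Rpl35a-ps4 (chromosome 2) and Rpl35a-ps6 (chromosome 5) were identical over all 333 bases in GENCODE M21 and differ from the Rpl35a coding sequence by G156A, counted from the A of the start codon, with the base of Rpl35a first. Rpl35a-ps5, not analysed here, carries G156A, A171G and C234T. The stretch from base 136 to 254 is shown with the differing bases in capitals.
Rpl35a: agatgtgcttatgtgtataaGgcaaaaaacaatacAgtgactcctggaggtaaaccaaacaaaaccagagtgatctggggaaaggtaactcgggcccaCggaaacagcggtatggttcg
Rpl35a-ps2, Rpl35a-ps3, Rpl35a-ps4 and Rpl35a-ps6: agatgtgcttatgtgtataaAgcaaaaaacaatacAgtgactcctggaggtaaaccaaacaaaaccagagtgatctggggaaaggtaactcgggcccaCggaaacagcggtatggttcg
Rpl35a-ps5: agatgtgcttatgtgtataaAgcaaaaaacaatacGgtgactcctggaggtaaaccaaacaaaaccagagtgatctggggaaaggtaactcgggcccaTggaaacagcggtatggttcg

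These 4 copies held the same value as each other in all 12 libraries, and no other gene of the table shared its values with another. They were therefore 1 measurement, deposited 4 times. Each copy measured 179, 238 and 247 in the control libraries, 196, 202 and 162 with sg1, 168, 178 and 111 with sg2, and 156, 180.4 and 137 with sg3. The sg2 libraries were all below the controls, and those of sg1 and sg3 overlapped them. The log2 fold change of each was -0.24 ± 0.17 (SE, adjusted p = 0.195), -0.55 ± 0.17 (SE, adjusted p = 0.0126) and -0.48 ± 0.17 (SE, adjusted p = 0.0252). Whether reads were divided among the copies or counted for each is not given, so their values were not added. The call with sg2 was lost without sg2 replicate 3, and that with sg3 without sgControl replicate 2 or 3 or sg3 replicate 1 or 3, or with plain empirical Bayes (adjusted p = 0.0544). With sg1 the change was called under median-of-ratios (-0.39, adjusted p = 0.0389), table-total (-0.45, 0.00673) and upper quartile (-0.38, 0.0463) scaling. Counting the 4 copies once, 15 of 20 members were called with sg1, 14 with sg2 and 15 with sg3, where 89.2%, 59.7% and 59.9% of all genes were called.

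Rps10-ps1 (chromosome 3) differs from the Rps10 coding sequence at 6 of 495 bases. Bases 166 to 285 hold 3 of them, A233G, T236C and T285C, in capitals.
Rps10: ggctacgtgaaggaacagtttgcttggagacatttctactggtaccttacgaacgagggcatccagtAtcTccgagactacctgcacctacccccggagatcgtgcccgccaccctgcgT
Rps10-ps1: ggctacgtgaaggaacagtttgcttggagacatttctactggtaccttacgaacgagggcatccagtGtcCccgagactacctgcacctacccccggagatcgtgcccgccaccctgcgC

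Rps10-ps1 measured 424, 444 and 492 in the control libraries, 373, 376 and 357 with sg1, 398, 405 and 427 with sg2, and 343, 367 and 388 with sg3. It fell with sg1 and sg3, whose libraries were all below the controls, and 1 sg2 library overlapped the lowest control. The log2 fold changes were -0.29 ± 0.08 (SE, adjusted p = 0.00207), -0.14 ± 0.08 (SE, adjusted p = 0.119) and -0.31 ± 0.08 (SE, adjusted p = 0.00349), beside -0.22, -0.21 and -0.27 for Rps10. With sg2 Rps10-ps1 was called under median-of-ratios (-0.18, adjusted p = 0.0424), table-total (-0.35, 0.0081) and upper quartile (-0.19, 0.027) scaling. Within the coding sequence, reads that span none of the 6 bases cannot be told apart.

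**Figure D3:**
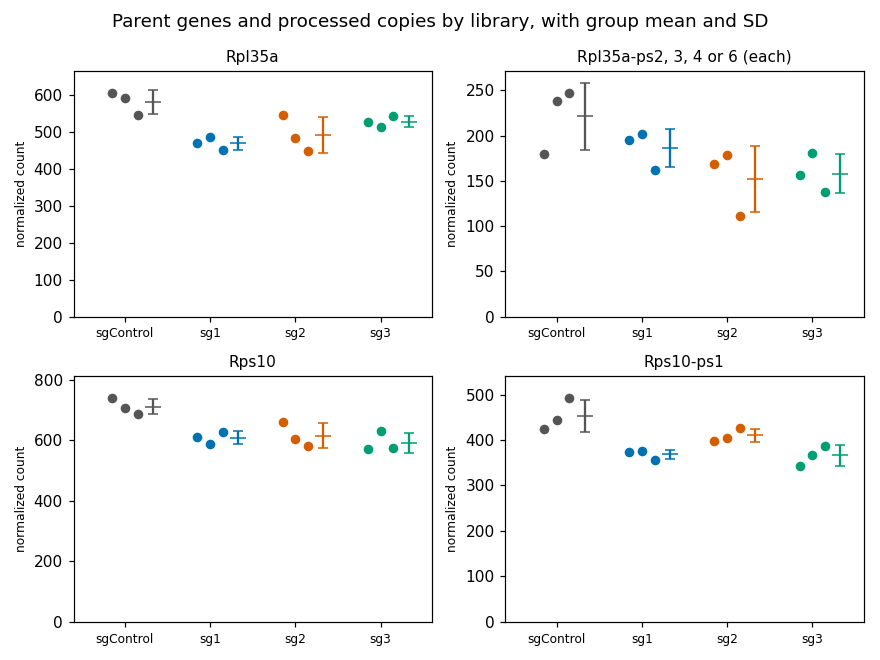
Normalized count of Rpl35a, of each of its 4 identical copies, which hold 1 value, of Rps10 and of Rps10-ps1 in each library (points), with the group mean and SD beside them, on axes that start at 0. In the controls each copy reads 179 to 247 and Rpl35a 544 to 604.

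Rpl37rt, annotated as a transcribed processed pseudogene on chromosome 5, matches the 294-base coding sequence of Rpl37, a gene of the large subunit on chromosome 15, at all but 1 base, G249A. Bases 229 to 269 are shown with that base in capitals.
Rpl37: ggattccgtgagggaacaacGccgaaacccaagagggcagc
Rpl37rt: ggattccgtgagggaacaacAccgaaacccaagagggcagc

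Rpl37rt measured 4121, 4114 and 4325 in the control libraries, 4090.4, 4338 and 4726 with sg1, 3016, 3197 and 3383 with sg2, and 2790.3, 3277 and 3365 with sg3. All 6 libraries of sg2 and sg3 were below the controls, and those of sg1 overlapped them. With sg2 and sg3 it fell by 0.39 ± 0.07 (SE, adjusted p = 0.000177) and 0.42 ± 0.07 (0.000102) on the log2 scale. With sg1 the change was 0.06 ± 0.07 (SE, adjusted p = 0.382), and its sign turned to -0.09 under scaling by median of ratios. The difference among guides passed (adjusted p = 7.59e-06), at 0.45 between sg1 and sg2 and 0.48 between sg1 and sg3. The genes of chromosome 15, where Rpl37 lies, had a median of 0.62 with sg1, 0.03 with sg2 and 0.0015 with sg3. Rpl37 itself was not analysed here, and the part of its reads in this result was not tested.

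The 4 translation factors did not move together. Eif3h and Eif3j1 encode subunits of eIF3, the large complex that holds the small subunit during initiation. Eif3h measured 3540.2, 3856 and 3501 in the control libraries, 5178, 5429 and 5370.4 with sg1, 3519, 3465 and 3639 with sg2, and 3311, 3879.7 and 3835 with sg3. It was higher in all 3 libraries of sg1 than in any other library, and the remaining groups overlapped. The rise with sg1 was 0.55 ± 0.06 (SE, adjusted p = 2.61e-07), or 1.47-fold, against -0.04 ± 0.06 (SE, adjusted p = 0.6) with sg2 and 0.01 ± 0.06 (SE, adjusted p = 0.844) with sg3, where the sign depended on the setting. Scaled to the table's total, the rise with sg1 was 0.34, and Eif3h was called lower with sg2 (-0.24, adjusted p = 0.0177). Eif3h lies on chromosome 15, as the only member there, and 78 of the 94 deposited genes of that chromosome were called higher with sg1, with a median (0.62) above its own value. The part of the chromosome in this rise was not tested.

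Eif3j1, a loosely bound eIF3 subunit at the decoding site, measured 152, 157 and 143 in the control libraries, 149, 158 and 147 with sg1, 247, 235 and 215 with sg2, and 275, 205 and 266 with sg3. The libraries of sg2 and sg3 were all above the controls, and those of sg1 overlapped them. It rose by 0.62 ± 0.12 (SE, adjusted p = 0.000262) with sg2 and 0.71 ± 0.12 (SE, adjusted p = 8.54e-05) with sg3, or 1.54-fold and 1.64-fold. With sg1 it changed by 0.005 ± 0.12 (adjusted p = 0.966), which turned to -0.15 under scaling by median of ratios. Eif3h, Rpl37rt and Eif3j1 had the smallest p-values among guides (adjusted p = 9.60e-08, 7.59e-06 and 5.09e-05). A near-identical gene, Eif3j2, shares 2365 of 2379 aligned bases with Eif3j1 and was not analysed here, so reads of the pair are uncertain.

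Eif5a and Eif5a2 encode 2 forms of eIF5A, with 343 identical bases of 464 aligned. Eif5a had the highest count of all members, with 24466, 26064 and 24194 in the control libraries, 19885, 20680.0 and 20394 with sg1, 23947, 24518 and 21232 with sg2, and 20191, 22813 and 22088 with sg3. The libraries of sg1 and sg3 were below the controls, those of sg2 overlapped them, and the call with sg3 was lost without sgControl replicate 2 or sg3 replicate 1, and with the length and GC trend removed (-0.0507, adjusted p = 0.378). Its log2 fold change was -0.29 ± 0.06 (SE, adjusted p = 0.0004), -0.10 ± 0.06 (SE, adjusted p = 0.161) and -0.20 ± 0.06 (SE, adjusted p = 0.0138). With sg2 it was called under median-of-ratios (-0.14, adjusted p = 0.0431), table-total (-0.31, 0.00396) and upper quartile scaling (-0.15, 0.0306). Per kilobase of transcript its control level was 17333, against 2805 for Eif3h, 27.8 for Eif3j1 and 3.7 for Eif5a2.

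Eif5a2 measured 19.6, 19.05 and 17.2 in the control libraries, 9.57, 8.73 and 6.63 with sg1, 5.22, 2.99 and 0.872 with sg2, and 17.5, 3.85 and 8.21 with sg3. These values correspond to 18 to 21 estimated reads in the controls, 6 to 9 with sg1, 1 to 5 with sg2 and 4 to 15 with sg3, so counting error is large. The sg1 and sg2 libraries were all below the controls, and sg3 replicate 1 overlapped them. The change passed the test with sg2, -2.45 ± 0.51 (SE, adjusted p = 0.000681), and was -1.09 ± 0.51 (SE, adjusted p = 0.0537) with sg1 and -1.06 ± 0.51 (SE, adjusted p = 0.0797) with sg3. The calls with sg1 and sg3 depended on the setting. With sg1 the change passed with the replicate block (adjusted p = 0.0407), under the 4 other scalings (0.0135 to 0.0388), with a pseudocount of 5 (0.0215), with the length and GC trend removed (0.0418), with only the 2 groups compared (0.00802), and without sg2 replicate 1 or 3 or sg3 replicate 1 or 2. With sg3 it passed without sg3 replicate 1 (-1.55, adjusted p = 0.0253), under table-total scaling (0.0384), with a pseudocount of 5 (0.0454), with that trend removed (0.0483) and with only the 2 groups compared (0.0476). The difference between sg2 and sg3 was -1.38 (adjusted p = 0.0491). With a pseudocount of 1 the fitted changes of so low a gene are understated.

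**Figure D4:**
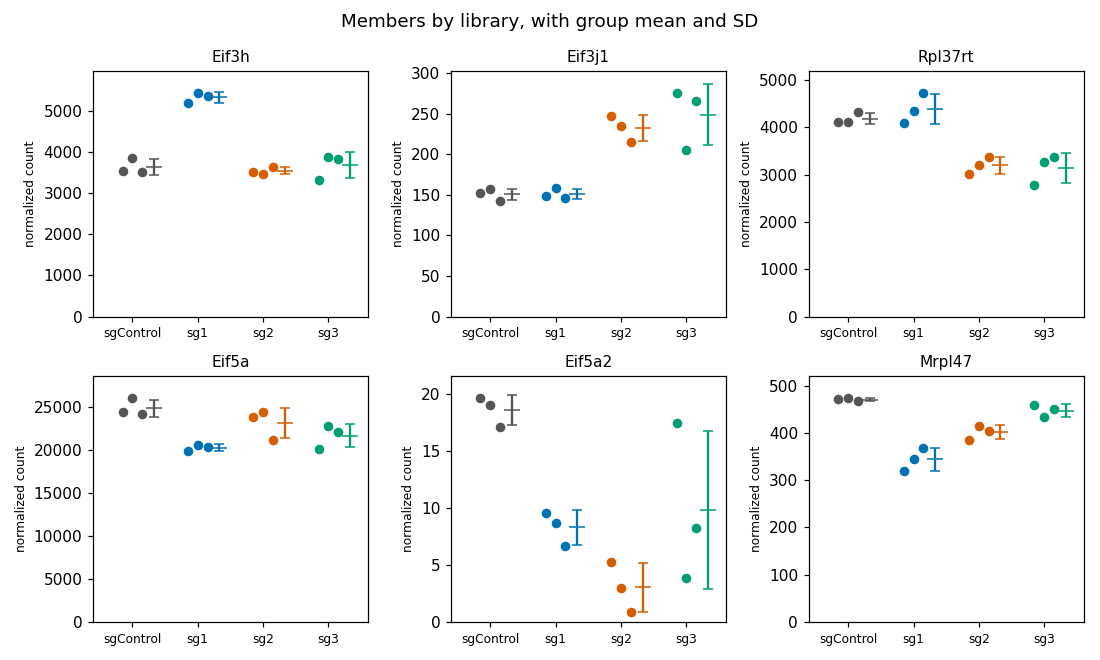
Normalized counts of 6 members that differed among the guides, by library (points) with the group mean and SD, on axes that start at 0. Eif3h stands above the controls with sg1 only, Eif3j1 with sg2 and sg3, and Rpl37rt below them with sg2 and sg3.

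Over all members, 15 of 23 were called with sg1 (14 lower, 1 higher), 17 with sg2 (16 lower) and 18 with sg3 (17 lower), where 89.2%, 59.7% and 59.9% of all genes were called in either direction. Lower values with all 3 guides were found for 20 of 23, against 36.3% of all genes. With the identical Rpl35a copies counted once this was 17 of 20, and 14, 13 and 14 were called lower with sg1, sg2 and sg3. None was called higher with all 3 guides, where 14.1% of genes were, and none in opposite directions, where 9.57% were. Equality of the 3 guides was rejected for 10 of 23 members and 75.3% of all genes. In the 11 cytosolic genes it was rejected for 3 (27.3%), and in the factors for 4 of 4. In the mean of the guides 21 members were lower, beside 49.1% of all genes, but 100% of the table passed in that contrast, so it is a description. The calls with single guides rest on the same libraries and carry this limit too.

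Of 111 other genes of translation, a list that holds the Rps6k kinases, 12 were in the table. Of these, 8, 4 and 4 were called lower and 2, 4 and 2 higher with sg1, sg2 and sg3, where 39.1%, 29.4% and 33.4% of all genes were called lower and 50.1%, 30.2% and 26.5% higher. Rack1, a small subunit scaffold protein, changed by -0.20 ± 0.05 (SE, adjusted p = 0.00155), -0.07 ± 0.05 (SE, adjusted p = 0.218) and -0.15 ± 0.05 (SE, adjusted p = 0.0219), and Gadd45gip1, of the mitochondrial ribosome, by -0.32 ± 0.07 (SE, adjusted p = 0.000782), -0.16 ± 0.07 (SE, adjusted p = 0.0696) and -0.27 ± 0.07 (SE, adjusted p = 0.00653). Larp1, which binds TOP mRNAs, changed by -0.31 ± 0.05 (SE, adjusted p = 2.12e-05), -0.07 ± 0.05 (SE, adjusted p = 0.202) and -0.10 ± 0.05 (SE, adjusted p = 0.0981). Pabpc4, a poly(A)-binding protein, was called lower with all 3 guides, by -0.48 ± 0.06 (SE, adjusted p = 1.52e-06), -0.18 ± 0.06 (SE, adjusted p = 0.0204) and -0.20 ± 0.06 (SE, adjusted p = 0.0102), and Farsa, a subunit of phenylalanyl-tRNA synthetase, by -0.18 ± 0.07 (SE, adjusted p = 0.025), -0.17 ± 0.07 (SE, adjusted p = 0.0455) and -0.28 ± 0.07 (SE, adjusted p = 0.00341). The kinase Rps6ka2 was called higher with all 3 (0.78, 0.44 and 0.29). Rps6ka1, of the same kinase family, was called lower with sg1 (-0.45) and changed by -0.06 and -0.13 with sg2 and sg3, not called. Hbs1l and Gfm1 were called lower with sg1 (-0.26 and -0.36) and sg2 (-0.16 and -0.21). Gspt2, a form of the release factor eRF3, was called higher with sg2 and sg3 (0.39 and 0.48), and Lars2, the mitochondrial leucyl-tRNA synthetase, with sg2 (0.90 ± 0.28 (SE, adjusted p = 0.0216)). Lars2 spread widely between dishes, with 21350, 13565 and 12188 in the control libraries and 14661, 21634 and 29355 with sg1. With sg2 it measured 33889, 26211 and 25563. Deptor, an mTOR inhibitor whose gene lies on chromosome 15, was called higher with sg1 and sg2 (0.58 and 0.16).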

How the data were processed

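Total RNA of 12 dishes was sequenced from stranded libraries. The authors deposited a normalized signal per gene from estimated counts, with STAR 2.7.8a, Partek and DESeq2 named in the submitters' processing notes. Size factors (0.859 to 1.147) were inferred here, as the value per library that brought the most low values to whole reads. Estimated reads are the deposited values times this factor. The mouse genome build and the counting method are not given in the sources used here. Under 100 estimated reads, 79.9 to 85.5% of values were whole to within 0.05 reads, too few for a count model. The estimated reads in the table came to 1917313 to 2779751 per library. Groups came from the labels.

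limma 3.58.1 (R 4.3.3; trend and robust empirical Bayes) was fitted to log2(value + 1) of all 982 genes and 12 libraries, with Benjamini-Hochberg adjustment over 982 genes, and tested on simulated data. SE denotes the fit's standard error, and tests were two-sided. Names, chromosomes and transcripts came from GENCODE M21 (972 genes matched), and copies were aligned with Biopython 1.88. Chromosome lengths could not be compared with the authors' build, so no coordinates were joined to the values. Rpl37rt was set apart as a retrocopy after its annotation was read. Members, lists and motifs were chosen with earlier results of these data known. Named with every library's value were members called with all 3 guides, those with the largest called rise or the largest called fall in a class with each guide, and the 3 with the smallest p among guides. Alternatives were other scalings, pseudocounts, filters, a replicate block, a length and GC correction and leaving out each library.

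Same-numbered libraries of sgControl and sg1 deviated together (correlation 0.199 to 0.238), as did sgControl and sg2 (0.122 to 0.164), but not sgControl and sg3 (-0.0786 to -0.00383). The numbers were taken as a block only as an alternative, whose value is given where it changed a call with sg1 or sg2.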

Additional observations from a re-analysis of the deposited data

Results flagged for a closer look

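Effects under the same contrast differed among the guides for 10 members, by limma's F test of equality of the guides. The adjusted p was 9.6e-08 for Eif3h, which rose with sg1, 7.59e-06 for Rpl37rt and 5.09e-05 for Eif3j1, which moved with sg2 and sg3. It was 0.000495 for Rpl39, lowest with sg3, and 0.000549 for Mrpl47 and 0.0289 for Mrpl12, both lowest with sg1. It was 0.00991 for Rpl7a and 0.0278 for Rpl36, lowest with sg1, 0.0306 for Eif5a2, lowest with sg2, and 0.0361 for Eif5a, lowest with sg1. The share of all genes that differed among the guides was 75.3%. Each guide is 1 clone, so the guide and the clone cannot be told apart.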

How the results depend on the processing

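All 11 cytosolic genes were lower with each guide under the 14 of 25 alternatives that can move their fold changes, with medians of -0.44 to -0.21 for sg1, -0.37 to -0.12 for sg2 and -0.32 to -0.13 for sg3. In the test against a 1.2-fold change, 2, 2 and 1 members were called with sg1, sg2 and sg3, 0 with all 3 and 1 in the mean of the guides, and 0 cytosolic genes with any guide, where 52%, 22.5% and 19.9% of the table passed. The 7 members called with all 3 guides became 16 under median-of-ratios and upper quartile scaling, 18 under table-total scaling and 3 with plain empirical Bayes, and the 10 that differed among guides became 16 under median-of-ratios scaling, under scaling without the most abundant feature and with the length and GC trend removed in the replicate block. Cytosolic calls with sg2 became 5 with plain empirical Bayes, 4 with the length and GC trend removed and 5 with that and the block, and with sg3 5 with the trend removed. Leaving out 1 library gave 14 to 17 members with sg1, 7 to 18 with sg2, 11 to 18 with sg3, 2 to 8 with all 3 guides, 5 to 10 among guides, and 9 to 11, 2 to 9 and 7 to 10 cytosolic genes. Members called with sg2 were 7 without its replicate 3 and with sg3 11 without its replicate 1. The 7 shared calls became 2 without sgControl replicate 2 or sg2 replicate 3, 3 without sgControl replicate 1 or sg2 replicate 1 or 2, and 4 without sgControl replicate 3 or sg1 replicate 1 or 3. The 10 among guides became 5 without sg1 replicate 1.

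Some signs turned. Eif3j1 with sg1 was -0.148, -0.207, -0.128 and -0.134 under median-of-ratios, table-total, table-total without the top feature and upper quartile scaling, -0.0667 with the length and GC trend removed, with or without the block, and -0.0329 to 0.0356 with 1 library left out. Rpl37rt with sg1 was -0.0897, -0.149, -0.0691 and -0.0758 under these scalings and -0.01 with the trend removed, with or without the block. Eif3h with sg3 was -0.0878 under table-total scaling and -0.0263 to 0.088 with 1 library left out, and with sg2 -0.0615 to 0.008 so, but with sg2 it was called lower under table-total scaling (-0.239, adjusted p = 0.0177). With the trend removed, with or without the block, Mrpl12 with sg3, a called fall of 0.15, was 0.0177 and Eif5a with sg2 0.0222. The causes were not tested.

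With the replicate block, 17, 18 and 19 members were called with sg1, sg2 and sg3, 9 with all 3 and 10 among guides, and 11, 9 and 10 cytosolic genes. The block lost no call of a single member and added Rpl39 and Eif5a2 with sg1, Rpl18 with sg2 and Rpl7a with sg3. Counting the identical Rpl35a copies once, an alternative chosen after seeing the data, gave 15, 14 and 15. Depth limits Eif5a2, and a table of genes that passed in the mean of the guides holds no unchanged genes to check the scaling.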
